A study of Mus musculus with 12 samples.

Results

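Imprinted genes were followed here, 10 in number: *Grb10*, *Nnat*, *Peg3*, *Impact*, *Mest*, *Snrpn*, *Zrsr1*, *Cdkn1c*, *Igf2r* and *Peg10*. They were selected on earlier results of these libraries, among them the measured difference in RNA level between CIDEA KO and WT cells, so that difference is described below without a test. Changes over time were tested, but they were known too when the genes were listed, so those tests are no independent evidence. All 10 were found among the 35580 genes of the tables and all 10 passed the filter on low counts, as did 17424 genes in all. RNA was measured by sequencing of polyadenylated transcripts from R1 mouse ESCs, an established embryonic stem cell line. WT was the parental line, and CIDEA KO was a single subclone of it that lacks the *Cidea* locus after CRISPR/Cas9 deletion, so that the deletion and the derivation of 1 clone cannot be told apart. Each genotype was taken as ESCs in 10% FBS with LIF, prior to induction (0 h), and as spheroids in growth factor-reduced Matrigel with 15% FBS and no LIF, at 24 h and 48 h post-induction. There were 6 groups with 2 libraries each.

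An imprinted gene is transcribed mainly from the copy inherited from 1 parent, because DNA methylation laid down in the egg or the sperm marks a control region and persists on that copy. After fertilisation the marks are copied by DNMT1 with UHRF1 and protected by the zinc-finger protein ZFP57 with TRIM28, and cultured ESCs are known to gain or lose such marks in a way that differs between lines and subclones. In most tissues *Grb10*, *Cdkn1c* and *Igf2r* are transcribed from the maternal copy, and *Nnat*, *Peg3*, *Impact*, *Mest*, *Snrpn*, *Zrsr1* and *Peg10* from the paternal copy. The libraries do not separate the parental copies, so each value below is the sum over both. On GRCm38, *Grb10* spans chr11:11930508-12038683 on the minus strand and *Zrsr1* chr11:22972005-22976496 on the plus strand, inside *Commd1*. *Nnat* spans chr2:157560078-157562522 (plus), inside an intron of *Blcap*. *Peg3* (chr7:6703892-6730431), *Snrpn* (chr7:59982495-60140219) and *Cdkn1c* (chr7:143458339-143461050) lie on the minus strand. *Mest* (chr6:30723547-30748465) and *Peg10* (chr6:4747306-4760517) lie on the plus strand, and *Igf2r* (chr17:12682406-12769664) on the minus strand.

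The stretches upstream of the starts that the data turned on are shown with each CG pair, the site of methylation, in capitals. They come from RefSeq (GRCm38.p6) and are read 5′ to 3′ on the strand of the gene; those of *Nnat* and *Peg3* are shortened to the bases between the gene and an exon of its neighbour on the other strand. The 2 starts of *Grb10* are set side by side because they differ in CG content and in use, *Nnat* and *Peg3* because they differed most between the genotypes after *Grb10*, and *Mest* because it holds the motif described next.
Grb10 major start, chr11:12037421-12037670, minus strand: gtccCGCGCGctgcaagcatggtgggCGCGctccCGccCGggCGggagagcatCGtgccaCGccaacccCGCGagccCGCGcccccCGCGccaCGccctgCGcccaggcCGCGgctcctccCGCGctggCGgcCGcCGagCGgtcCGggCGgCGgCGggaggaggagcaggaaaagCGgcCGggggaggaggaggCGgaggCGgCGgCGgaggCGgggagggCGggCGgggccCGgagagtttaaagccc
Grb10 second start, chr11:12027972-12028221, minus strand: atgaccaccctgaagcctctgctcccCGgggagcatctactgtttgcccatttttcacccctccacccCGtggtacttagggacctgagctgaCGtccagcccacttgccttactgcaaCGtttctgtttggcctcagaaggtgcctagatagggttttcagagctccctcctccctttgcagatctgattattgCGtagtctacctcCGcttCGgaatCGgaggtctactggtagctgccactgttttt
Nnat, chr2:157560008-157560077, plus strand: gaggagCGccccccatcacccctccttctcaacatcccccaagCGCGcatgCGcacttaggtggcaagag
Peg3, chr7:6730432-6730577, minus strand: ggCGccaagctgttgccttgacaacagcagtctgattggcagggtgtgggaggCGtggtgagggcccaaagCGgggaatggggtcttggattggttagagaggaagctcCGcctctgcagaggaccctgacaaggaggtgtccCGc
Mest, chr6:30737800-30738049, plus strand: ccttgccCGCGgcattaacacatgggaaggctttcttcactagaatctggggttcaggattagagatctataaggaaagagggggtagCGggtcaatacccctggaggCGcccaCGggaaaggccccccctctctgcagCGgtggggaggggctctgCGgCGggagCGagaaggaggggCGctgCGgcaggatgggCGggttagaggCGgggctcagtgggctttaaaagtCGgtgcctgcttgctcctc
The window shown for *Grb10* at its major start held 40 CG pairs in 250 bases, against 8 in the window of its second start. Over the full RefSeq window of 300 bases, the major start of *Grb10* held 45 CG pairs, a number reached by 1.9% of all 32851 promoters, whose median was 7. That of *Igf2r* held 34, those of *Nnat* and of *Mest* at its major start 17, that of *Peg3* 13, that of *Zrsr1* 10 and that of *Snrpn* at its downstream start 7. The hexamer TGCCGC, which ZFP57 binds when it is methylated, was searched on both strands (TGCCGC and GCGGCA, each of which contains a CG pair). It was found in 5 of 13 windows, which belong to 4 of the 7 genes with a window (*Grb10* at the major start, *Nnat*, *Mest* in a pair of overlapping windows, and *Snrpn*), and in 11.6% of all promoters. *Mest* carried it at bases 9 and 184 of the stretch above, both as GCGGCA. A match is a description of these letters and does not show binding. No window was given for *Impact*, *Cdkn1c* and *Peg10*.

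Library depth was 29.0 to 38.5 M estimated counts (M for mega), and within a library *Nnat* had at most 995 counts and *Snrpn* at most 8865. Libraries stood apart in 1 case: with counts thinned to equal depth, replicate 1 of the CIDEA KO spheroids at 24 h held 15473 genes, against 17635 to 19672 in the other 11, and calls of the 10 genes over time that were lost without it are named below. *Cidea* itself was at 4.07 and 3.17 TPM in WT ESCs, 5.06 and 1.88 at 24 h, and 0.974 and 0.836 at 48 h, and no read of it was counted in KO (0 in each of 6 libraries, a limit of 3 counts or 0.111 to 0.153 TPM). The 10 pluripotency genes checked summed to 6634 to 7487 TPM at 0 h and to 4381 to 4898 TPM at 48 h. Of 12 fibroblast genes, *Thy1* reached 23.3 TPM and *Tagln* 6.38 TPM in single libraries, while *Postn* was at 0 in all and *Col1a1* at most at 1.66 TPM. Summed levels of primitive endoderm, trophoblast and neural or mesoderm markers were 21.3 to 68.6, 28.6 to 55.0 and 63.4 to 162 TPM. Of these markers *Col4a1* reached 42.0, *Lama1* 25.8, *Krt8* 22.1, *Krt18* 23.2, *Tfap2c* 22.8, *Tubb3* 148 and *Pax6* 13.9 TPM, and the others stayed at or below 7.54 TPM. The part of such cells in the results was not tested. In bulk RNA, fewer cells that express a gene and less RNA per cell cannot be told apart.

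TPM, the share of transcripts in a library corrected for transcript length, is used for levels. Fold changes are on the log2 scale of gene counts from an edgeR model over all 12 libraries, with the standard error (SE) from that model, and a gene is called where the quasi-likelihood test gives a Benjamini-Hochberg adjusted p under 0.05 over all genes tested.

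**Figure D1:**
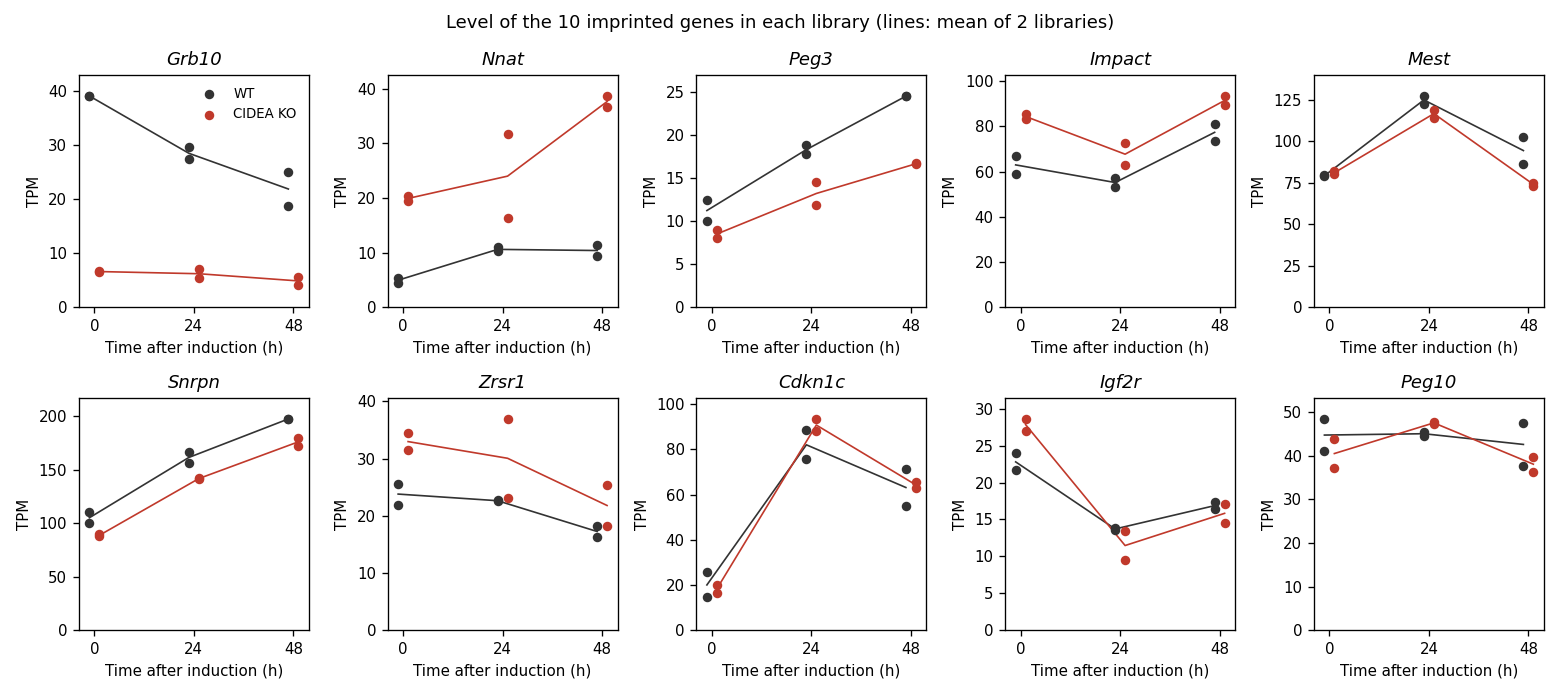
TPM (y axis) of each imprinted gene in each library against hours after induction (x axis), with WT in black and CIDEA KO in red; each point is a library and the lines join the means of 2 libraries. *Grb10* lay between 18.8 and 39.2 TPM in WT and between 4.22 and 7.10 TPM in KO, while *Nnat* and *Impact* were higher and *Peg3* and *Snrpn* lower in KO at all 3 times.

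*Grb10* encodes an adaptor that binds the insulin and IGF1 receptors and restrains growth. It was at 39.2 and 39.2 TPM in WT ESCs, 27.4 and 29.7 TPM in WT spheroids at 24 h, and 25.1 and 18.8 TPM at 48 h. In KO it was at 6.66 and 6.63 TPM at 0 h, 7.10 and 5.40 TPM at 24 h, and 4.22 and 5.61 TPM at 48 h. All 6 KO libraries lay below all 6 WT libraries, and the highest KO value was well under the lowest WT value. In counts the gene was 6.79-fold lower in KO at 0 h (log2 -2.76, SE 0.128), 5.34-fold lower at 24 h (log2 -2.42, SE 0.126) and 5.06-fold lower at 48 h (log2 -2.34, SE 0.127). Over the 3 times together the log2 difference was -2.51 (SE 0.0733), and it stayed between -2.56 and -2.45 when any 1 library was left out. With average transcript lengths taken into account it was -2.31.

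*Nnat* encodes neuronatin, a small membrane protein of the endoplasmic reticulum best known from neurons and beta cells. It was at 5.42 and 4.55 TPM in WT ESCs, 10.3 and 10.98 TPM at 24 h, and 11.4 and 9.37 TPM at 48 h. In KO it was at 20.3 and 19.5 TPM at 0 h, 16.3 and 31.7 TPM at 24 h, and 36.6 and 38.7 TPM at 48 h. Every KO library was above every WT library, and the libraries of KO spheroids at 24 h differed from each other more than those of any other group. The gene was 3.54-fold higher in KO at 0 h (log2 1.83, SE 0.265), 2.22-fold at 24 h (log2 1.15, SE 0.254) and 3.50-fold at 48 h (log2 1.81, SE 0.257). At 24 h the log2 difference was 1.53 without replicate 1 of the KO spheroids and 0.65 without replicate 2. Over all times it was 1.60 (SE 0.149).

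*Peg3* encodes a large zinc-finger protein with roles in growth and in cell death. In WT it was at 12.5 and 10.0 TPM, then 17.8 and 18.9 TPM, then 24.5 and 24.6 TPM at 0, 24 and 48 h. In KO it was at 8.96 and 8.12 TPM, then 11.9 and 14.6 TPM, then 16.6 and 16.8 TPM. KO lay below WT at each time, and the KO level at 48 h was under the WT level at 24 h. The log2 differences were -0.54 (SE 0.106), -0.49 (SE 0.104) and -0.47 (SE 0.104) at 0, 24 and 48 h, and -0.50 (SE 0.0603) over all times, or 1.42-fold lower.

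*Impact* encodes an inhibitor of the translation regulator GCN2. In WT it was at 58.9 and 67.0 TPM at 0 h, 57.0 and 53.4 TPM at 24 h and 81.2 and 73.5 TPM at 48 h, and in KO at 83.1 and 85.6, 62.7 and 72.6, and 93.4 and 89.4 TPM. KO was above WT at each time without overlap, while the range of KO spheroids at 24 h overlapped that of WT ESCs. The log2 difference was 0.31 (SE 0.0482) over all times. *Zrsr1*, a retrogene copy of a U2AF-related splicing factor gene, was at 21.97 and 25.6, 22.7 and 22.6, and 16.3 and 18.2 TPM in WT and at 31.5 and 34.4, 23.1 and 37.0, and 25.4 and 18.2 TPM in KO. The KO values were higher at each time, though at 48 h the lower KO library and the higher WT library were nearly equal, and the log2 difference over all times was 0.46 (SE 0.0989). At 24 h that of *Zrsr1* was 0.34 (SE 0.170), 0.61 without KO replicate 1 and 0.01 without KO replicate 2. *Zrsr1* is close in sequence to *Zrsr2*, and how reads were divided between them is uncertain.

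*Snrpn* encodes the spliceosomal protein SmN. It was at 99.6 and 110.4, 167 and 156, and 197 and 197 TPM in WT, and at 89.4 and 87.8, 141 and 142, and 179 and 172 TPM in KO. KO was lower at each time, with a log2 difference of -0.21 (SE 0.0434) over all times that went from -0.29 at 0 h to -0.14 at 48 h. *Mest*, which encodes a hydrolase-like enzyme of mesodermal tissue, was at 79.0 and 79.7, 127 and 123, and 103 and 86.2 TPM in WT and at 80.2 and 82.1, 119 and 114, and 74.9 and 73.4 TPM in KO. In TPM KO was slightly above WT at 0 h and below it at 24 h and 48 h, without overlap, while in counts it was lower at each time. The count-based log2 difference of *Mest* was -0.22 (SE 0.0451) over all times, and -0.14 on the log2(TPM + 1) scale.

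*Cdkn1c* encodes p57, an inhibitor of cyclin-dependent kinases. It was at 25.6 and 14.5, 88.5 and 75.6, and 55.1 and 71.2 TPM in WT and at 20.1 and 16.6, 93.6 and 88.0, and 63.1 and 65.6 TPM in KO. The genotypes overlapped at every time (log2 difference -0.05, SE 0.0707). *Igf2r*, the receptor that takes IGF2 to the lysosome, was at 24.0 and 21.6, 13.8 and 13.6, and 17.4 and 16.4 TPM in WT and at 28.6 and 27.04, 9.54 and 13.4, and 17.1 and 14.5 TPM in KO. It was higher in KO at 0 h, lower at 24 h and overlapping at 48 h (log2 difference over all times -0.07, SE 0.0649). At 24 h the lower of the KO libraries was replicate 1, and the log2 difference of -0.28 (SE 0.113) was -0.08 without it. *Peg10*, derived from a retrotransposon and needed in the placenta, was at 37.6 to 48.5 TPM in the 6 WT libraries and 36.4 to 47.8 TPM in the 6 KO libraries (log2 difference -0.09, SE 0.0623). Its ranges overlapped at 0 h and 48 h, and KO was higher at 24 h.

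**Figure D2:**
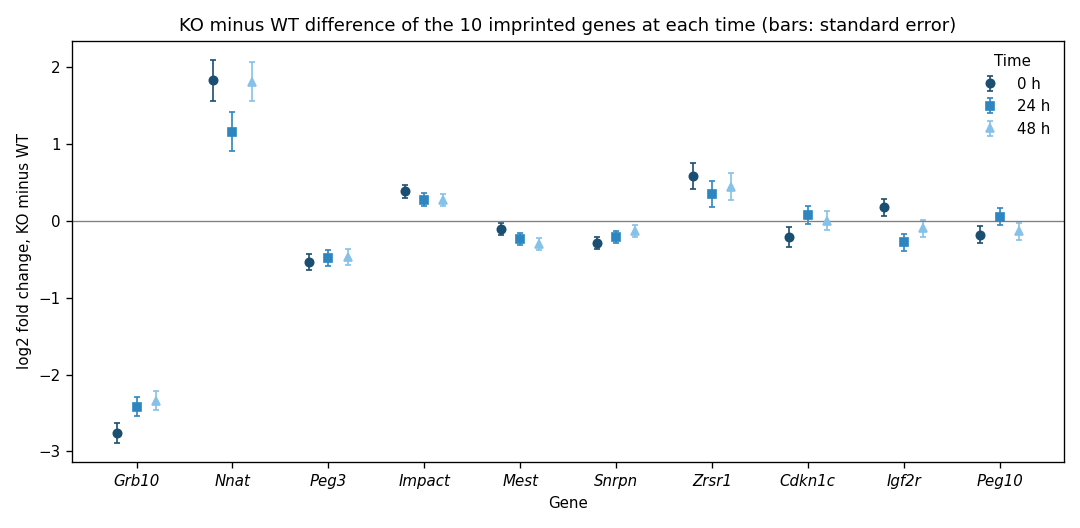
Log2 fold change of KO over WT (y axis) for each imprinted gene (x axis) at 0, 24 and 48 h; bars are the standard error from the edgeR model. *Grb10* lies at -2.76 to -2.34 and *Nnat* at 1.15 to 1.83, and the other 8 genes lie between -0.54 and 0.58.

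In TPM, 6 genes had KO and WT libraries that did not overlap in the same direction at all 3 times, beside 5.49% of the genes with a mean of at least 1 TPM, and nothing is read from this count, since the same difference was known when the genes were listed. At single times 44.0%, 39.6% and 39.7% of those genes did not overlap at 0, 24 and 48 h. Of the genes transcribed from the maternal copy *Grb10* was lower in KO and the log2 differences of *Cdkn1c* and *Igf2r* were -0.05 and -0.07, and of those from the paternal copy *Nnat*, *Zrsr1* and *Impact* were higher and *Peg3*, *Mest* and *Snrpn* lower. By level in WT ESCs the order was *Snrpn*, *Mest*, *Impact*, *Peg10*, *Grb10*, *Zrsr1*, *Igf2r*, *Cdkn1c*, *Peg3* and *Nnat* in TPM, where the ranges of *Zrsr1*, *Igf2r* and *Cdkn1c* overlapped. In KO ESCs *Grb10* was the lowest of the 10 and *Nnat* lay above *Peg3*.

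Over time the genes moved as follows. From 0 h to 48 h in WT, 8 of 10 were called, 5 higher and 3 lower, beside 23.6% of all genes (11.1% higher and 12.5% lower). In KO, 7 of 10 were called, 4 higher and 3 lower, beside 25.0% (12.1% higher and 12.8% lower). *Nnat*, *Peg3*, *Snrpn* and *Cdkn1c* rose and *Grb10*, *Zrsr1* and *Igf2r* fell in both genotypes.

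**Figure D3:**
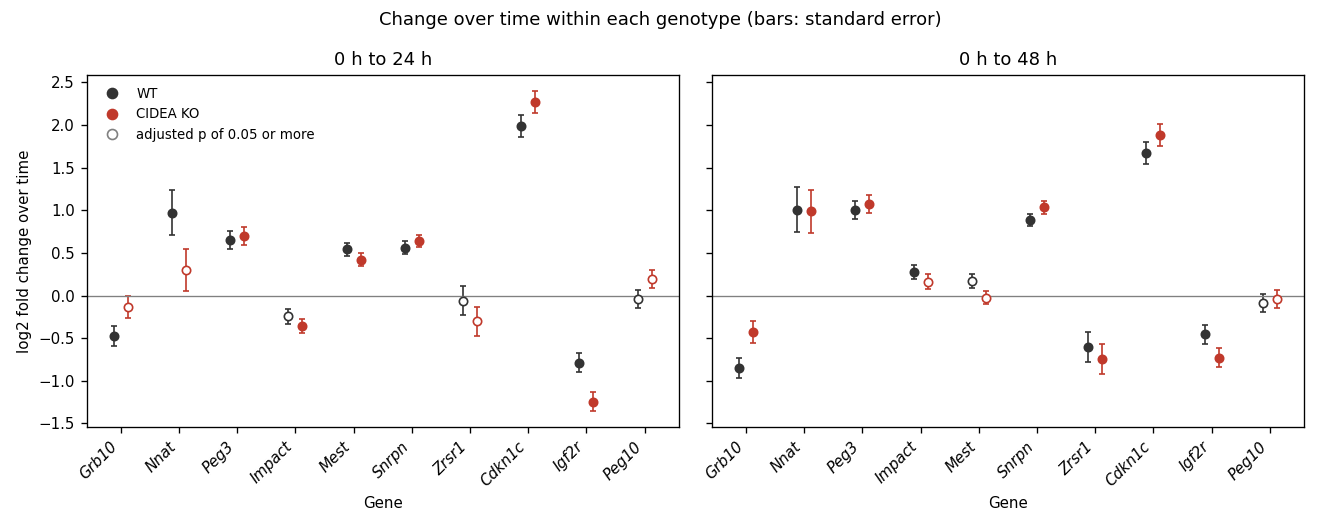
Log2 fold change from 0 h to 24 h (left) and from 0 h to 48 h (right) on the y axis for each imprinted gene on the x axis, WT in black and CIDEA KO in red; bars are standard errors and open points have an adjusted p of 0.05 or more. *Cdkn1c* rose by 1.67 in WT and 1.89 in KO by 48 h, and the other 9 genes lie between -0.85 and 1.07 at that time.

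*Cdkn1c* rose 3.97-fold by 24 h in WT (log2 1.99, SE 0.126, edgeR adjusted p = 1.27e-09) and 4.84-fold in KO (log2 2.27, SE 0.128, adjusted p = 1.99e-10). Between 24 h and 48 h its log2 change was -0.31 in WT, not called (adjusted p = 0.125), and -0.39 in KO, called (adjusted p = 0.045). The KO call held in 7 of the 12 fits that left out 1 library, and without KO replicate 1 at 24 h the change was -0.36 (adjusted p = 0.115). Of its relatives, *Cdkn1b*, which encodes p27, fell by 0.90 in WT and 0.81 in KO on the log2 scale by 48 h, and *Cdkn1a*, which encodes p21, was not called from 0 h to 48 h in either genotype. *Igf2r* fell by 24 h, with a change of log2 -0.79 in WT (adjusted p = 5.5e-05) and -1.24 in KO (adjusted p = 1.56e-07). From 24 h to 48 h it rose by 0.52 in KO (adjusted p = 0.00502), or 0.31 without KO replicate 1 at 24 h (not called, adjusted p = 0.0775), and its change in WT was 0.34 (adjusted p = 0.0776). *M6pr*, the gene of the other mannose 6-phosphate receptor, was not called from 0 h to 48 h in either genotype.

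*Snrpn* and *Peg3* rose at each step in both genotypes. The second step was less firm: in WT the call of *Peg3* held in 6 and that of *Snrpn* in 9 of 12 fits that left out 1 library, and in KO that of *Peg3* in 9 of 12, where it was 0.27 without KO replicate 1 at 24 h (adjusted p = 0.208). From 0 h to 48 h *Snrpn* rose by 0.89 in WT (SE 0.0756, adjusted p = 3.07e-08) and 1.04 in KO (SE 0.0761, adjusted p = 2.67e-09), and *Peg3* by 1.003 (SE 0.105, adjusted p = 4.92e-07) and 1.07 (SE 0.106, adjusted p = 1.96e-07). Both started lower in KO and stayed lower. *Nnat* rose 2.01-fold in WT (adjusted p = 0.00811) and 1.98-fold in KO (adjusted p = 0.00573). By 24 h *Nnat* rose by 0.97 in WT (adjusted p = 0.0154), a call lost without replicate 2 at 0 h or either library at 24 h. In KO its change by 24 h was 0.30 (adjusted p = 0.475), 0.67 without replicate 1 at 24 h and -0.19 without replicate 2. The call from 0 h to 48 h was lost in WT without replicate 2 at 0 h (adjusted p = 0.0863) or replicate 1 at 48 h (adjusted p = 0.0761), and in KO without replicate 2 at 0 h (adjusted p = 0.0717).

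*Grb10* fell by 0.85 in WT (SE 0.118, adjusted p = 1.71e-05) and by 0.43 in KO (SE 0.128, adjusted p = 0.017) by 48 h. The KO fall was lost in 5 of the alternative settings, with adjusted p from 0.121 to 0.243. *Zrsr1* fell by 0.60 in WT (adjusted p = 0.0147) and 0.74 in KO (adjusted p = 0.00274), and both falls were lost with limma on log2 TPM, with adjusted p up to 0.224 and 0.109. The fall of *Igf2r* by 48 h in WT was -0.45 (adjusted p = 0.00542) and was lost without replicate 1 at 0 h (adjusted p = 0.0687) or replicate 2 at 48 h (adjusted p = 0.0502), and that of *Zrsr1* in WT without replicate 2 at 0 h or replicate 1 at 48 h. *Mest* rose by 24 h, by 0.54 in WT (adjusted p = 5.7e-05) and 0.42 in KO (adjusted p = 0.000636), and fell again by 48 h, by 0.37 and 0.44, so that neither genotype was called over the whole course. The fall in WT was not called without replicate 1 at 24 h or replicate 2 at 48 h. By 24 h *Impact* fell by 0.35 in KO (adjusted p = 0.00485), and its change in WT was -0.25 (adjusted p = 0.0551). Without KO replicate 1 at 24 h the fall was called in WT (adjusted p = 0.031) and not in KO (-0.28, adjusted p = 0.0511), and without KO replicate 2 at 0 h the KO call was lost too. *Impact* rose by 0.52 in each genotype from 24 h to 48 h. Over the whole course it rose by 0.28 in WT (adjusted p = 0.0205), a call lost without WT replicate 1 at 0 h or at 48 h (adjusted p = 0.242 and 0.185), and its change in KO was 0.16 (adjusted p = 0.178). *Peg10* was not called in any of the 6 comparisons over time, and its log2 changes were between -0.23 and 0.19.

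By 24 h, 7 of 10 genes were called in WT (15.0% of all genes) and 6 in KO (18.6%). From 24 h to 48 h, 4 were called in WT (8.14%) and 6 in KO (9.95%). Whether the genotypes changed differently over time was tested directly by the interaction term of the edgeR model. None of the 10 genes was called from 0 h to 24 h (0.0115% of all genes, 2 in number) or from 0 h to 48 h (0.0402%, 7 in number), and DESeq2 and limma also called none. At an unadjusted p under 0.05 stood 1 gene each: *Igf2r* for 0 h to 24 h (log2 -0.46, SE 0.159, edgeR adjusted p = 0.84) and *Grb10* for 0 h to 48 h (log2 0.43, SE 0.173, edgeR adjusted p = 0.761). Without replicate 2 of the KO spheroids at 24 h, 2 genes were called for 0 h to 24 h, *Nnat* with -1.18 and *Igf2r* with -0.68, and without replicate 1 the same terms were -0.31 and -0.27. Replicate 1 is the library that held the fewest genes, and its part in the result was not tested.

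Isoforms and starts were compared next. Transcripts with at least 10% of the TPM of their gene in the mean of a group numbered 20, of which 19 passed the filter. From 0 h to 48 h, 3 of these 19 were called in WT (1.67% of all transcripts) and 4 in KO (1.80%). Those in both were Peg3-201, Snrpn-201 and Cdkn1c-201, and Cdkn1c-202 was the additional one in KO, with a log2 change of 2.54 there and 0.40 in WT. Cdkn1c-201, from the same start, went the other way, with 1.62 in KO and 2.31 in WT. How reads were divided between the pair is uncertain, and a difference between genotypes in these changes was not tested.

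Most *Grb10* RNA was assigned to Grb10-201, which begins at the CG-rich major start printed above. Its share of the gene was 81.6 to 95.6% in WT and 58.5 to 94.4% in KO, and its level was 16.8 to 37.4 TPM in WT and 3.38 to 5.65 TPM in KO. Grb10-201 was lower in every KO library than in any WT library. Since it held most of the gene, this follows from the difference of the gene, which was known when the gene was listed. Grb10-203, from the second start, was at most at 2.44 TPM in WT and 0.748 TPM in KO. Grb10-202 and Grb10-207, which begin further downstream, reached 2.95 TPM at 24 h and 1.78 TPM at 48 h in 1 KO library each and were at 0 in the other library of the same group. In WT they reached similar levels in single libraries, Grb10-202 2.20 TPM at 0 h and Grb10-207 1.69 TPM at 48 h.

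*Nnat* RNA came at 92.5 to 100% from 1 group of neighbouring starts, mainly as Nnat-202, Nnat-205 and the retained-intron form Nnat-204. Nnat-205 was at 0 to 2.40 TPM in WT and 3.28 to 7.77 TPM in KO, and Nnat-202 at 4.12 to 10.3 TPM in WT and 7.03 to 25.0 TPM in KO. The genotypes did not overlap in Nnat-205, and in Nnat-202 they overlapped through the lowest KO library, replicate 1 at 24 h. Peg3-201 held 83.4 to 100% of *Peg3*, Impact-201 and Snrpn-201 all of their genes in each library, and Igf2r-201 at least 90.7% of *Igf2r*.

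Mest-211, from the start printed above, held 80.5 to 93.4% of *Mest*, and Mest-204, a short form from the same start, reached 19.5% in replicate 1 of the KO spheroids at 24 h. *Zrsr1* was split between the coding form Zrsr1-201 (17.7 to 36.5%) and Zrsr1-202, which begins downstream of it and is annotated as a processed pseudogene transcript. *Cdkn1c* was spread over Cdkn1c-201, Cdkn1c-202, Cdkn1c-205 and the retained-intron form Cdkn1c-204. Its first start, shared by Cdkn1c-201 and Cdkn1c-202, was at 14.1 and 13.9 TPM in WT ESCs and 12.8 and 11.3 TPM in KO ESCs, and at 54.2 to 60.05 TPM at 24 h in both genotypes. Peg10-202 and Peg10-203, whose starts are close together, traded places between replicates, with Peg10-202 from 14.9 to 89.2% of the gene, so their assignment is uncertain.

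**Figure D4:**
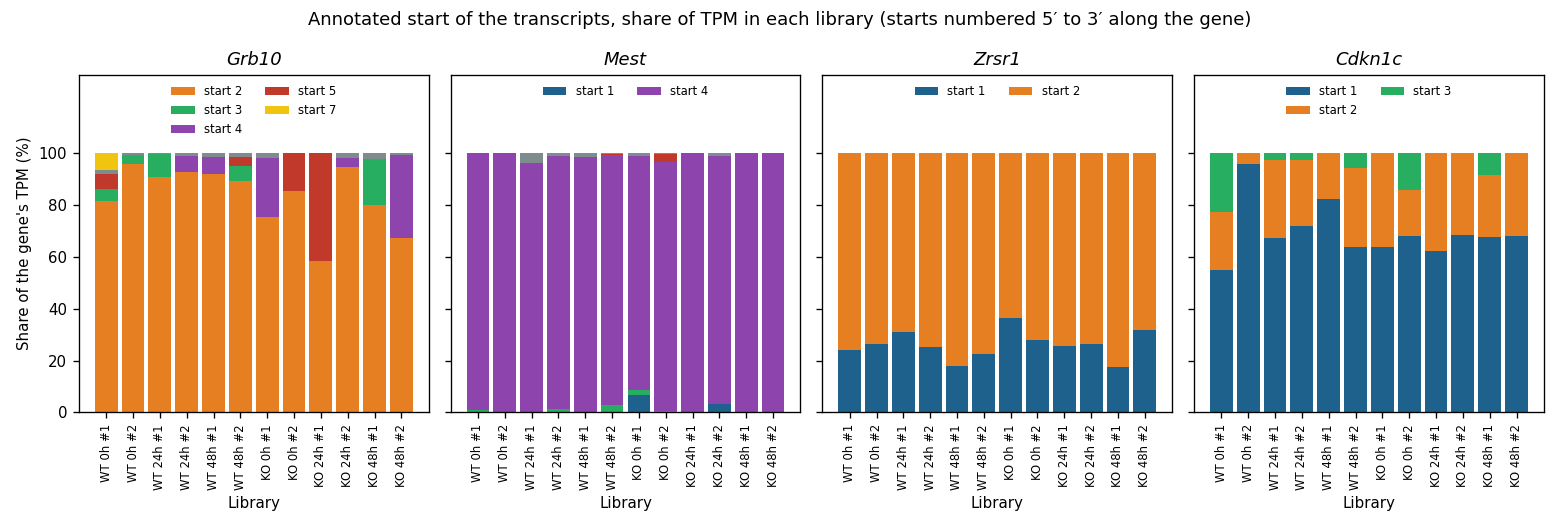
Share of the TPM of a gene (y axis, percent) assigned to each annotated start in each library (x axis) for *Grb10*, *Mest*, *Zrsr1* and *Cdkn1c*; starts are numbered along the gene, starts of at least 5% in some library are named in the legend, and replicates are marked #1 and #2. Start 2 of *Grb10*, which is the major start of Grb10-201, holds 58.5 to 95.6%, and start 4 of *Mest* over 90% in each library. The start of Grb10-203, called the second start in the text, is start 3 here.

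Several of these genes sit in clusters that share a control region, and others lie inside a gene that is not imprinted in most tissues. Of 29 neighbours tested, 5 were called between KO and WT over all times, 3 higher and 2 lower (17.2%, beside 5.03% of all genes). These neighbours too were listed with earlier results of these data known, so nothing is read from this share. *Grb10* lies 32.4 kb from *Ddc*, which encodes dopa decarboxylase, and 198 kb from *Cobl*, an actin nucleator gene. *Ddc* was lower in KO by log2 -0.29 (SE 0.0817) and *Cobl* higher by 0.32 (SE 0.0480), against -2.51 for *Grb10*. *Nnat* lies in an intron of *Blcap* on the opposite strand. *Blcap* was at 18.4 to 24.8 TPM in WT and 11.8 to 18.6 TPM in KO (log2 -0.47, SE 0.106), the reverse of *Nnat*. How Kallisto was set for strand is not given in the sources used here, so reads from the overlap of the pair cannot be placed with certainty.

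**Figure D5:**
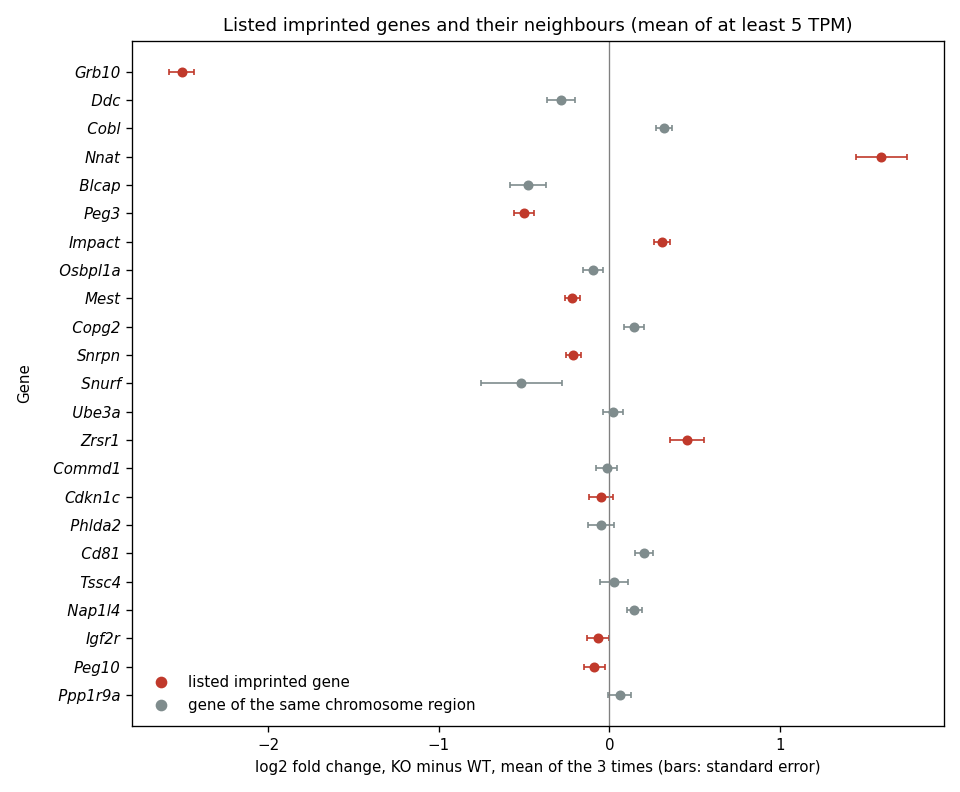
Log2 fold change of KO over WT across the 3 times (x axis) for each imprinted gene (red) and, below it, the genes of its chromosome region with a mean of at least 5 TPM (grey), listed along the y axis; bars are standard errors. *Grb10* (-2.51), *Nnat* (1.60) and *Zrsr1* (0.46) lie outside the range of all neighbours shown, which runs from -0.52 (*Snurf*) to 0.32 (*Cobl*). Neighbours under 5 TPM, not shown, run from -1.74 (*Slc22a2*, SE 1.56) to 1.187 (*Calcr*, SE 0.762). The imprinted genes were listed with this difference known, so nothing is read from their place outside the range.

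*Usp29*, which starts 0.1 kb from *Peg3* on the other strand, was at 0.762 to 2.79 TPM in WT and 0.076 to 1.64 TPM in KO (log2 -1.196, SE 0.368, not called). *Zim1*, of the same cluster, was at 0.284 to 1.39 TPM in WT and 0.14 to 1.498 TPM in KO. *Snurf* shares its RNA with *Snrpn* and was at 138 to 396 TPM in WT and 71.0 to 388 TPM in KO. Its lowest value came from replicate 1 of the KO spheroids at 24 h, whose *Snrpn* was at 141 TPM, and how the pair divides reads is uncertain. *Commd1*, which contains *Zrsr1*, had a log2 difference of -0.02 (SE 0.0591), and *Copg2*, which overlaps *Mest*, of 0.14 (SE 0.0581). In the region of *Cdkn1c*, *Cd81* (0.20, SE 0.0534) and *Nap1l4* (0.15, SE 0.0422) were called higher in KO, and *Phlda2*, a growth restrainer of the placenta, was not (-0.05, SE 0.0743).

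Of 47 further imprinted genes tested, 6 were called between KO and WT over all times (12.8%, beside 5.03% of all genes), 4 higher and 2 lower. Besides *Blcap*, *Ddc*, *Cd81* and *Nap1l4* these were *Slc38a4*, an amino acid transporter gene (0.19, SE 0.0426), and *Gnas*, which encodes the stimulatory G protein alpha subunit. *Gnas* was at 143 to 179 TPM in WT and 191 to 242 TPM in KO without overlap at any time (log2 0.35, SE 0.0409). Its RNA came mostly from the common downstream start, at 133 to 163 TPM in WT and 181 to 219 TPM in KO, which is imprinted in few tissues. With limma on log2(TPM + 1), 1 of the 47 was called instead of 6, and with 1 library left out 2 to 12 were. *Blcap*, *Ddc*, *Cd81* and *Nap1l4* were counted among the called neighbours too. This list was also written with earlier results of these data known, so nothing is read from its shares. Over time from 0 h to 48 h, 10 of 47 were called in WT (21.3%, beside 23.6% of all genes), 4 higher and 6 lower, and 16 in KO (34.0%, beside 25.0%), 7 higher and 9 lower. *Magel2* rose by 3.04 in WT and 3.13 in KO, *Phlda2* fell by 0.72 in both, and *Gnas* fell by 0.21 in WT and 0.23 in KO. The long non-coding imprinted RNAs *H19* and *Meg3* were not analysed here.

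Genes that lay down, copy or protect methylation were taken as a list of 20. Over all times 4 were called between KO and WT (20%, beside 5.03%), *Zfp57* higher and *Dnmt3a*, *Dnmt3b* and *Tet1* lower. Nothing is read from this share, since the list was chosen with earlier results known. *Zfp57* was at 311 and 361 TPM in WT ESCs and 450 and 367 TPM in KO ESCs (log2 0.19 over all times, SE 0.0530). *Dnmt3a* and *Dnmt3b*, the de novo methyltransferase genes, differed by -0.22 (SE 0.0387) and -0.20 (SE 0.0378), and *Tet1*, which encodes a methylcytosine oxidase, by -0.63 (SE 0.0946). *Dnmt1* (0.09, SE 0.0400), *Uhrf1* (0.08, SE 0.0377) and *Trim28* (-0.05, SE 0.0406) were not called. *Dppa3*, which encodes a protein that protects methylation in the early embryo, was low in both, at 5.63 and 5.58 TPM in WT ESCs and 1.28 and 2.53 TPM in KO ESCs (log2 over all times -1.03, SE 0.386, not called).

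From 0 h to 48 h 12 of the 20 were called in WT (60%, beside 23.6% of all genes). In KO 9 were called (45%, beside 25.0%). The list was chosen with earlier results of these data known, so nothing is read from these counts. *Dnmt3b* rose by 3.46 in WT and 3.72 in KO and *Dnmt3a* by 2.26 and 2.58, while *Tet2* fell by 1.80 and 2.15 and *Zfp57* by 0.85 and 0.92. *Dnmt3l*, the cofactor of both de novo enzymes, was the 1 gene of the list with a called interaction. It was at 293 and 269 TPM in WT ESCs and 194 and 182 TPM in WT at 48 h, and at 221 and 210.995 TPM and then 216 and 229 TPM in KO. It fell by 0.61 in WT (adjusted p = 4.84e-06) and changed by 0.09 in KO (adjusted p = 0.495), and the difference of these changes was 0.70 (SE 0.108, edgeR adjusted p = 0.0112).

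Among 7 relatives that are not imprinted, 2 were called between KO and WT over all times (28.6%, beside 5.03% of all genes). Nothing is read from this count, since the list is short and was chosen with earlier results known. *Cdkn1a*, which encodes p21, was higher by 0.45 (SE 0.0785) and at 19.4 to 37.4 TPM in WT and 28.3 to 47.8 TPM in KO. *Grb7*, a relative of *Grb10* in the same adaptor family, was lower by 0.21 (SE 0.0595), and *Grb14*, the other relative, was at 1.54 to 3.42 TPM in all libraries.

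For the 3 genes with the largest KO minus WT difference, the genes most like them over the 12 libraries were sought among 10064 genes with a mean of at least 5 TPM, by Pearson's r of log2 CPM, counts scaled to library size. These values share the libraries and the genotype split and are given as a description. The closest to *Grb10* were *Herc4* (r = 0.971), *Cdc40* (0.959) and *Serinc1* (0.957), each lower in KO, *Herc4* with a lowest WT value of 63.0 TPM and a highest KO value of 49.4 TPM. The closest to *Nnat* were *Zmat3* (0.908), *Cyb5b* (0.908) and *Bag4* (0.905), and those to *Peg3* were *Capn3* (0.980), *Foxn4* (0.966) and *Ipo7* (0.964). *Capn3*, a protease gene, went from 13.6 and 7.89 TPM in WT ESCs to 78.4 and 66.9 TPM at 48 h, and from 5.70 and 6.33 to 48.5 and 39.1 TPM in KO. None of these 9 genes is among the imprinted genes listed.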

How the data were processed

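RNA was sequenced from 12 libraries, 2 for each of 6 groups (TruSeq Stranded mRNA, paired reads). Per the labels and the methods, the authors used Trimmomatic 0.33 for trimming and kallisto 0.43.1 for pseudoalignment to the mouse transcriptome (mm10/GRCm38). The deposited values are an estimated count, an effective length and a TPM for each transcript of each library. Estimated counts and TPM were summed by gene with GENCODE M21, to which 113580 of 115270 transcripts matched (98.53%), and counts were rounded. Gene counts were fitted with edgeR 4.0.16 (R 4.3.3; TMM, quasi-likelihood test, Benjamini-Hochberg adjustment over 17424 genes) as 6 groups of 2 libraries, and transcripts likewise (58985). DESeq2 1.42.0, limma 3.58.1, other filters, lengths as offsets and leaving out each library were the alternatives. The tests were checked on simulated counts whose spread between replicates was set lower than in these libraries. That check does not show how the tests behave at the spread of these libraries. Depth was 29.0 to 38.5 M estimated counts (M for mega), which limits counting error only. The 2 samples of a group are independent samples per the methods, and p-values measure the spread between them. Replicates with the same number did not deviate together (correlations -0.003, 0.059 and -0.016). The genes and lists were chosen with earlier results of these data known. All 10 genes are named, with the transcripts that held at least 10% of a gene in a group, and for the 3 with the largest KO minus WT difference the 3 genes most alike. From the lists, genes called between KO and WT or in an interaction are named, and a few others as background.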

Additional observations from a re-analysis of the deposited data

Results flagged for a closer look

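*Mest* moved in opposite directions from 0 h to 48 h in TPM: both WT libraries at 48 h were above both at 0 h, and both KO libraries at 48 h were below both at 0 h. In counts the log2 change was 0.17 in WT (SE 0.0782) and -0.024 in KO (SE 0.0784). The difference of these changes was -0.20 (SE 0.111, edgeR adjusted p = 0.92) and was not called.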

How the results depend on the processing

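No call of the 10 genes from 0 h to 48 h, and no genotype difference over all times other than that of *Cdkn1c*, changed direction. The difference of *Cdkn1c* (-0.05) was 0.04 with limma, 0.01 with lengths as offsets and at most 0.003 without 1 library. Changes that were not called turned sign without 1 library for *Peg10* (0 h to 48 h, -0.25 to 0.07 in WT and -0.17 to 0.07 in KO; also both steps in WT), *Nnat* (-0.19 to 0.67 by 24 h in KO, -0.10 to 0.16 from 24 h to 48 h in WT) and *Zrsr1* (-0.18 to 0.09 by 24 h in WT). Of the 10 genes, those called from 0 h to 48 h in WT numbered 8, and 5 with limma on log2(TPM + 1) or log2(TPM + 0.1). In KO they numbered 7, and 4 with limma on log2(TPM + 0.1). From 24 h to 48 h in WT the count of 4 became 7 with no filter, with at least 10 counts in every library or with only the groups compared, 2 with transcript lengths as offsets, and 1 and 0 with limma. In KO the count of 6 became 1 with either limma fit and 3 with only the groups compared. Leaving out 1 library gave 5 to 8 (0 h to 24 h in WT), 5 to 8 (0 h to 48 h in WT, lowest without WT 48 h replicate 1), 1 to 7 (24 h to 48 h in WT; 1 without WT 48 h replicate 2, 2 without either WT 24 h library, 7 without either KO 24 h library), 5 to 7 (0 h to 24 h in KO), 5 to 7 (0 h to 48 h in KO), 3 to 7 (24 h to 48 h in KO, lowest without KO 48 h replicate 1) and 0 to 2 (interaction to 24 h, highest without KO 24 h replicate 2). Of the 47 other imprinted genes, those called in WT numbered 10, 18 with DESeq2, and 5 to 17 without 1 library (5 without WT 48 h replicate 1, 17 without either KO 24 h library). In KO they numbered 16, 10 with limma on log2(TPM + 0.1) or with lengths as offsets, and 8 to 17 without 1 library (9 and 8 without KO 0 h replicates 1 and 2, 10 without KO 48 h replicate 1). Between KO and WT they numbered 6, 1 with limma or with lengths as offsets, and 2 to 12 without 1 library (2 without WT 24 h or WT 48 h replicate 1, 3 without WT 0 h replicate 2, either KO 0 h library or KO 48 h replicate 2, and 12 without KO 24 h replicate 2). Transcripts called from 0 h to 48 h numbered 3 in WT and 4 in KO, 7 in each with DESeq2, and 3 to 4 and 2 to 5 without 1 library (2 without either KO 0 h library). Where a count moved, the cause was not tested. With the replicate number as a block the counts were 5 instead of 4 (24 h to 48 h in WT), 15 instead of 16, 5 instead of 6 (other imprinted genes in KO and between genotypes) and 3 instead of 4 (transcripts in KO); the other counts were equal. The log2 difference of *Grb10* between the genotypes was -2.13 to -2.31 with limma or lengths as offsets.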
